A study of Homo sapiens with 12 samples.

Results

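The outermost 2 Mb of the long arms of 20 autosomes were taken as the subtelomeric long-arm ends: on chromosomes 1 to 22 without 9 and 19, every listed CCGG site within 2 Mb below the highest position listed for its chromosome in any library. Among sites listed in at least 1 library, this rule used positions and no tag count. It gave 59597 of the 966075 listed autosomal sites (1019951 sites were listed in all). Cytosine methylation had been profiled by HELP-tagging in a pair of kidney cancer lines of the clear cell type, which the labels call 786 and 769, treated with AA (ascorbic acid in the title of the series) or left as controls. In HELP-tagging genomic DNA is cut with HpaII or MspI, and the short tag read at each cut CCGG is counted. Each line had 2 DNA samples treated with AA and 1 control DNA sample, and a library of each enzyme was made from each of these 6 DNA samples (12 libraries). The labels give no dose or duration of AA and no clone, and they number the AA samples without saying whether they were separate cultures, so p-values measure only the spread between these samples, which may be technical. With 1 control per line, an effect of AA cannot be told apart from a property of that control DNA or library.

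HpaII and MspI both recognise CCGG, but HpaII is blocked when the inner cytosine is methylated or hydroxymethylated, whereas MspI cuts in either state. TET enzymes oxidise methylcytosine to hydroxymethylcytosine, ascorbic acid is a cofactor of these enzymes, and their activity can lead to loss of methylation. Subtelomeres lie between the telomeric repeats and the single-copy arm. They are rich in genes, in CpG and in blocks duplicated between chromosome ends, and their cytosines are methylated in most somatic cells outside CpG islands, the CpG-dense stretches that overlap many promoters.

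The 5 windows below are RefSeq promoter windows of GRCh38.p14, from 250 bases before to 50 bases after the gene start, printed 5′ to 3′ on the strand of the gene with every CCGG in capitals. CCGG reads the same on both strands, 63.1% of all 35116 RefSeq promoter windows hold at least 1 and 23.7% hold at least 4. A window was placed on the files' hg19 sites only where the spacing of its 4 or more CCGG sites matched a single run of listed sites. UTF1 is shown because it differed between the lines, ADARB1 and TBC1D9B because HpaII cut them often in all 6 samples, and LINC02138 and CERS3 because HpaII seldom cut them.
UTF1, chr10:133229967-133230266, plus strand: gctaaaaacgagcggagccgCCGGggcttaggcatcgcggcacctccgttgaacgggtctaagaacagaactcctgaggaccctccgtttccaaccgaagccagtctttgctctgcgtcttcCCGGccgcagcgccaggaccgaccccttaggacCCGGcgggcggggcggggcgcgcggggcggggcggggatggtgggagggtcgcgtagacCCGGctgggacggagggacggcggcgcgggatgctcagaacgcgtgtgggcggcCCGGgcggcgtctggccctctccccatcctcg
ADARB1, chr21:45074328-45074627, plus strand: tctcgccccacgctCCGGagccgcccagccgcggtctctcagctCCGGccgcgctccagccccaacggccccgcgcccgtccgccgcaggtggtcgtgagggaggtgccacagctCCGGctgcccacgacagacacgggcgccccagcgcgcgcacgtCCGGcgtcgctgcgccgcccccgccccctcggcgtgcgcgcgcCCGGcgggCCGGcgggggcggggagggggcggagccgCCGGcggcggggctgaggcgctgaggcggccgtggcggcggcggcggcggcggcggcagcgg
TBC1D9B, chr5:179907848-179908147, minus strand: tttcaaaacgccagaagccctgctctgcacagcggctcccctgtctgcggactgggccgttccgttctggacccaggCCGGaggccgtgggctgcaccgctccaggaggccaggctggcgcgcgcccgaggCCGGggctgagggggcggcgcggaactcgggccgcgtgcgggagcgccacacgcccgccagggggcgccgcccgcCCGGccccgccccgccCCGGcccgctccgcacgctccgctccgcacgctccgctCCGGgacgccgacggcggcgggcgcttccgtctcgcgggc
LINC02138, chr16:89166133-89166432, plus strand: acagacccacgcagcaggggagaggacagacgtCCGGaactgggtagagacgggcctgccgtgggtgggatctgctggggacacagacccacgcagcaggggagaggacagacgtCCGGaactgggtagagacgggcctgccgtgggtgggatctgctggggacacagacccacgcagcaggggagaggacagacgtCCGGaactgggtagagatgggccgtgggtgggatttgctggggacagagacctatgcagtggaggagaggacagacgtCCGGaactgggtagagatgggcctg
CERS3, chr15:100544634-100544933, minus strand: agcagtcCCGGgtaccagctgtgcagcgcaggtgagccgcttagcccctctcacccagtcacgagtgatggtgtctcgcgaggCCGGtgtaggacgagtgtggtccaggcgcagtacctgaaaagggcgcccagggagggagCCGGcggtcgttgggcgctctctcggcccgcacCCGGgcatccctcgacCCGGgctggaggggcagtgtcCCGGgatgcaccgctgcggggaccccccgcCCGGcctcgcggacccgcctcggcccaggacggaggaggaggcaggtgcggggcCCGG
UTF1 holds 5 CCGG sites, ADARB1 7, TBC1D9B 5, LINC02138 4 and CERS3 8, of which 7 were listed in the files. In LINC02138 the sites lie in copies of a short repeat, and counts there were fractional.

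The HpaII libraries held 189704 to 11054037 tags and the MspI libraries 3785890 to 12442031 tags. The 786 control HpaII library was by far the shallowest, with 10816 tags in the long-arm ends against 177074 to 632517 in the other HpaII libraries. Tags came through PCR without molecular identifiers, so every counting interval and floor given here covers counting error only. The measure used throughout is the share of a library's autosomal HpaII tags that fell in a region, divided by the share of the autosomal MspI tags of the same DNA sample that fell there. A ratio of 1 is the autosome mean, and a higher ratio means more HpaII cutting, and so less blocking, per MspI tag.

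The long-arm ends were cut less by HpaII than the rest of the autosomes in every DNA sample. The ratio of the ends was 0.759, 0.801 and 0.811 in 786 (AA replicate 1, AA replicate 2 and control, the order used in all such lists) and 0.750, 0.713 and 0.745 in 769. In the rest of the autosomes it was 1.02, 1.02 and 1.02 in 786 and 1.02, 1.03 and 1.03 in 769. All 6 values of the ends lay below all 6 of the rest, with no overlap. The ends averaged 0.763 ± 0.0370 and the rest 1.02 ± 0.00485 (SD, n = 6 DNA samples), a log2 difference of −0.42 or 0.745-fold (exact sign-flip permutation test over 6 DNA samples, two-sided p = 0.03125, the smallest it allows). The difference was also seen site by site: of the sites with at least 10 MspI tags in every MspI library, 14.2% to 64.7% of 2095 in the ends had an HpaII tag, against 16.7% to 68.0% of 14917 in the rest. That share was lower in the ends in 6 of 6 samples, with a mean difference of −6.21 percentage points (exact p = 0.03125), and −6.22 points after the libraries were thinned to equal depth. With each tagged site counted once, the log2 difference was −0.15 (exact p = 0.0625), which misses the threshold.

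Local CCGG density separated the sites of the ends that HpaII cut rarely from those it cut often. Density is the number of reference CCGG sites in the 1 kb around a site; its median was 5 in the ends and 3 in the rest, so the ends hold more of the dense sites that HpaII usually cuts. At sites with 3 to 7 CCGG the ratio was 0.532, 0.552 and 0.541 in 786 ends and 0.402, 0.331 and 0.233 in 769 ends, against 0.458 to 0.796 over the 6 samples of the rest. At sites with 8 to 15 CCGG it was 1.01 to 1.13 in the ends, against 1.66 to 2.08 in the rest, and no sample of one overlapped the other. These middle classes stood furthest below the rest, at 0.629-fold and 0.587-fold and lower in 6 of 6 samples each. The most isolated sites, with 1 to 2 CCGG, were 0.882-fold of the rest and lower in 4 of 6 samples (exact p = 0.125). The densest sites, with 16 or more, were 0.915-fold, with means of 2.55 ± 0.594 in the ends and 2.78 ± 0.597 in the rest (SD, n = 6), and lower in 6 of 6 samples. With the density classes weighted as in the rest, the ends stood at 0.696-fold. Each result seen in 6 of 6 samples has the smallest exact p, 0.03125, and 0.0573 after Benjamini-Hochberg adjustment over the 11 comparisons of this kind, which misses 0.05.

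The deficit of the ends was smaller at the sites of placed promoter windows than at other dense or sparse sites. The 271 placed promoter windows of the ends held 1261 sites, whose ratio was 2.43, 2.67 and 2.93 in 786 and 2.62, 2.67 and 4.00 in 769, against 2.56, 2.75 and 2.69 in 786 and 2.88, 2.79 and 4.08 in 769 for 26069 promoter sites of the rest. The difference was 0.975-fold, lower in 5 of 6 samples (exact p = 0.34375), with the 786 control as the exception. Other sites with 8 or more CCGG had ratios of 1.15 to 1.48 in the ends and 1.71 to 2.31 in the rest, which do not overlap, and stood at 0.661-fold (6 of 6 samples lower, exact p = 0.03125). Other sites with 1 to 7 CCGG stood at 0.768-fold (6 of 6 samples lower, exact p = 0.03125). Promoter sites differed from the other dense sites in this respect by 0.56 on the log2 scale, ends over rest, in 6 of 6 samples (exact p = 0.03125), and from the sparser other sites by 0.34 in 6 of 6 samples (exact p = 0.03125). Promoter windows were placed by their CCGG spacing, which selects dense windows. The end of 8q had none, and chromosome 8 was left out of all ratios in this paragraph, in the ends and in the rest. Promoter sites and other sites were not matched for density, and promoters that could not be placed fall among the other sites. The part of density in this contrast was not tested.

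**Figure D1:**
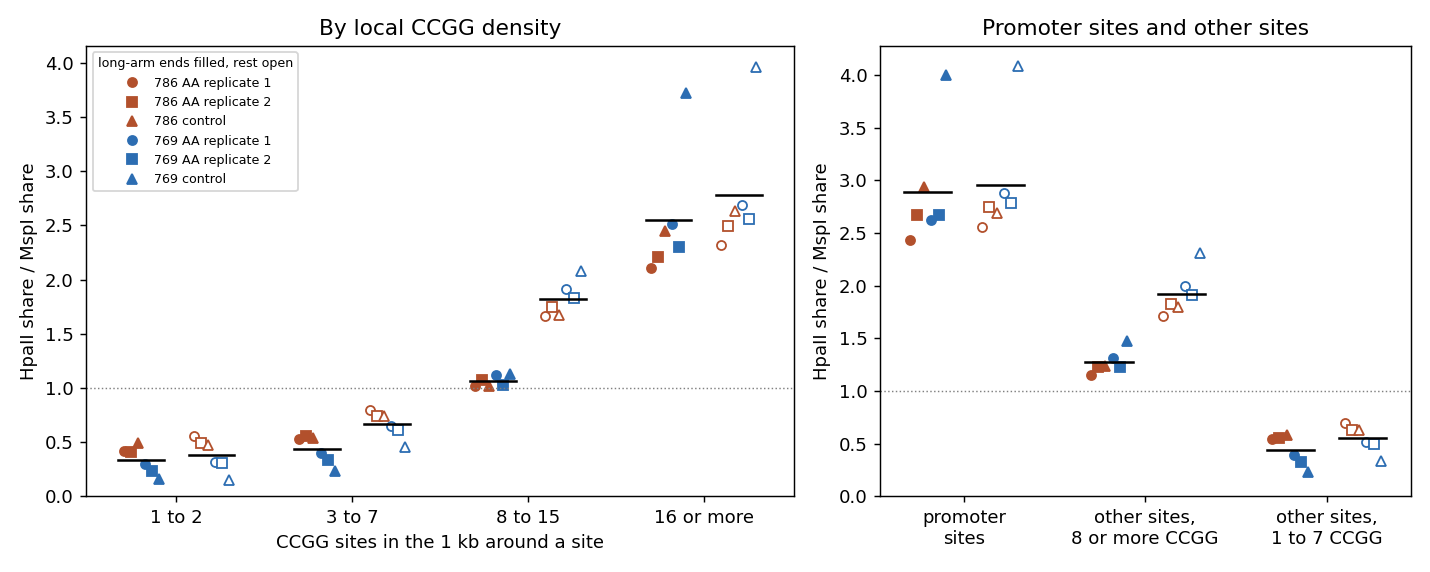
HpaII share over MspI share (linear axis from 0; 1 is the autosome mean) in the long-arm ends (filled) and the rest of the autosomes (open), by CCGG density (left) and for promoter sites and other sites (right); each point is 1 DNA sample and bars are means of 6. Chromosome 8 is left out on the right. The ends lie below the rest without overlap at 8 to 15 CCGG (1.01 to 1.13 against 1.66 to 2.08), and beside it at promoter sites.

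The short-arm ends, taken the same way on 15 chromosomes, gave 1.13, 0.861 and 1.28 in 786 and 0.804, 0.912 and 0.678 in 769. The long-arm ends of the same chromosomes gave 0.772, 0.810 and 0.818 in 786 and 0.774, 0.730 and 0.763 in 769. The long-arm ends varied less between samples than the short-arm ends. Their means were 0.778 ± 0.0325 and 0.946 ± 0.223 (SD, n = 6), and the 2 kinds of end were not separated (5 of 6 samples lower in the long-arm ends, exact p = 0.15625). At sites with 3 to 7 CCGG the long-arm ends stood at 0.581-fold of the short-arm ends and were lower in 6 of 6 samples (exact p = 0.03125, 0.0573 after the same adjustment). At sites with 8 to 15 CCGG the long-arm ends stood at 1.05-fold of the short-arm ends (exact p = 0.28125).

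Distance from the end was measured in 100 kb steps below the outermost listed site. The low level was not lowest at the tip: the outermost 100 kb had a mean of 1.04 ± 0.389, the next 0.916 ± 0.103 and the one after that 0.929 ± 0.0791 (SD, n = 6), and the other 17 steps ranged from 0.573 to 0.943. In the outermost step the 786 control stood alone at 1.82, against 0.821 to 0.985 in the other 5 samples. A single 11q site, at position 134918142 and with whole counts, gave 226 of the 426 HpaII tags of the 786 control there. Of the sites of this step, 50.9% carried a fractional count in at least 1 library. The highest of the other 17 means, 0.943, was that of the step starting at 1600 kb. There the 786 control stood at 1.38, against 0.763 to 0.929 in the other 5 samples. The 7q site at position 157513190 gave 350 of the 1019 HpaII tags of the 786 control in that step. The step from 300 to 400 kb stood at 0.584 ± 0.0875 and that from 1300 to 1400 kb at 0.573 ± 0.0690. Between them single steps returned close to 1, such as 0.936 ± 0.0891 at 1100 to 1200 kb. The outer 500 kb minus the inner 500 kb differed by 0.07 on the log2 scale over all 6 samples (exact sign-flip permutation p = 0.4375). This mean joins values of opposite sign: the difference was −0.04, −0.07 and −0.22 in 786 and 0.28, 0.14 and 0.35 in 769. The outer part was thus the lower one in each sample of 786 and the higher one in each sample of 769, a difference between the lines of −0.37 (786 minus 769, exact permutation test of 3 against 3 samples, p = 0.1, the smallest it allows). These signs did not hold under every alternative: with at least 10 MspI tags a site, each sample of 786 was positive (0.0235 to 0.0454).

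Beyond the limit of 2 Mb the level went on much as inside it. The last 100 kb inside the limit had a mean of 0.684 ± 0.133 and the first 100 kb outside it 0.701 ± 0.117 (SD, n = 6). In 2 Mb windows from the end inward the means were 0.763, 0.782, 0.854, 0.820 and 0.900, and then 1.04 in the window that starts at 10 Mb, 0.983 in that at 12 Mb and 1.03 to 1.41 in those from 14 Mb on. By line, the mean at 10 Mb was 0.973 in 786 and 1.10 in 769, that at 12 Mb was 0.926 in 786 and 1.04 in 769, and that at 14 Mb was 1.07 in 786 and 1.10 in 769. The window at 16 Mb rests on widely scattered samples, from 0.768 in the 769 control to 2.38 in 786 AA replicate 1.

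**Figure D2:**
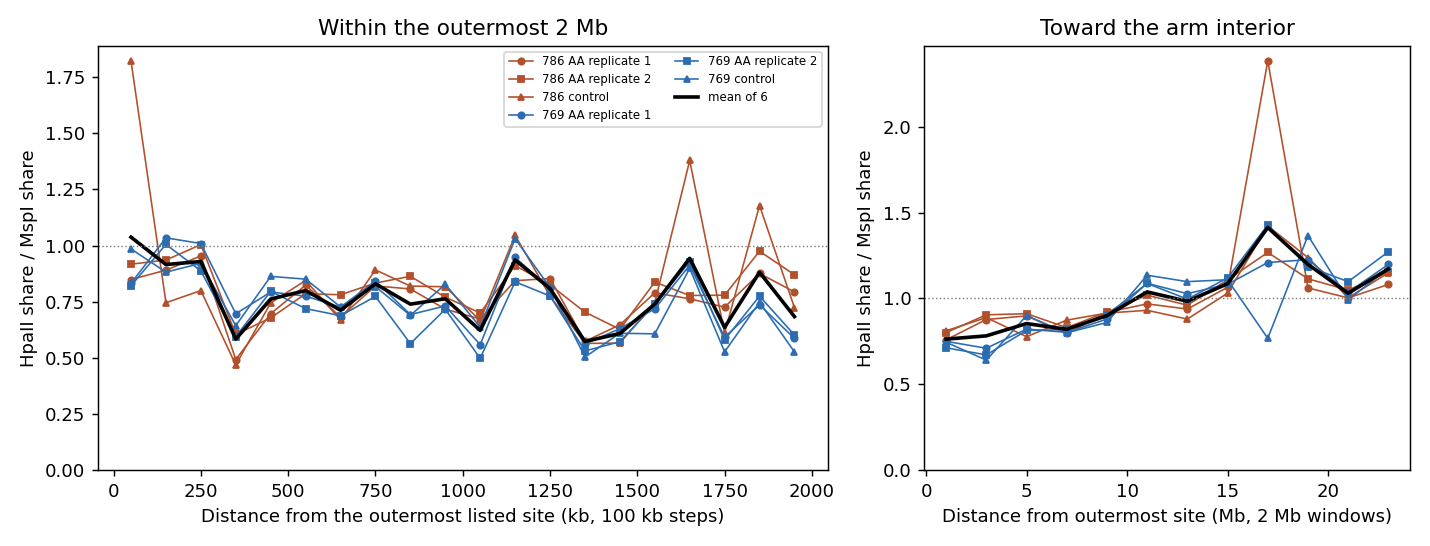
HpaII share over MspI share against distance from the outermost listed site, in 100 kb steps within 2 Mb (left) and in 2 Mb windows of the same 20 arms (right); thin lines are DNA samples, the thick line is their mean, and the dotted line is the autosome mean of 1. The outermost step averaged 1.04 with the 786 control at 1.82, and the means of the 2 Mb windows were 1.04 at 10 Mb and 0.983 at 12 Mb.

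The arms differed widely among themselves. When all 2 Mb windows of the autosomes, counted from each end, were tested with edgeR's quasi-likelihood test of HpaII against MspI tags, 15 of 20 long-arm ends differed from the autosome mean at an adjusted p under 0.05, where 44.8% of the 1374 windows did. Of the 15, 14 were lower (17.4% of all windows were) and 1 was higher (27.4% of all windows were). Below 1 in all 6 samples were 13 of the 20 arms, against 18.4% of all windows. The median log2 value was −0.42 over the 20 ends and 0.06 over all windows.

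The lowest ends were 21q, 13q and 6q. The end of 21q had ratios of 0.558, 0.560 and 0.688 in 786 and 0.492, 0.490 and 0.452 in 769, and a mean of 0.540 ± 0.0838 (SD, n = 6; log2 −0.91 ± 0.09 SE, edgeR adjusted p = 0.000171). The end of 13q had 0.533, 0.632 and 0.613 in 786 and 0.481, 0.468 and 0.521 in 769 (log2 −0.90 ± 0.08, edgeR adjusted p = 0.000123). The end of 6q had 0.677, 0.694 and 0.477 in 786 and 0.593, 0.479 and 0.351 in 769 (log2 −0.91 ± 0.13, edgeR adjusted p = 0.000716). No sample of these 3 ends came above 0.70, so their order among themselves is within the spread of the samples. In the order of RefSeq on GRCh38.p14, their outermost protein-coding genes are PRMT2, S100B and DIP2A on 21q, where PRMT2 is an arginine methyltransferase and S100B a calcium-binding protein; CHAMP1, UPF3A and CDC16 on 13q, where UPF3A takes part in nonsense-mediated decay and CDC16 is a subunit of the anaphase-promoting complex; and PDCD2, TBP and PSMB1 on 6q, where TBP is the TATA-binding protein and PSMB1 a proteasome subunit.

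At the other side stood 3q, 11q, 1q and 5q. The end of 3q, which closes with LMLN, the ribosomal protein gene RPL35A and DRC9, had 1.00, 1.23 and 1.22 in 786 and 1.35, 1.37 and 1.35 in 769, above 1 in every sample (mean 1.25 ± 0.139, SD, n = 6; log2 0.31 ± 0.07, edgeR adjusted p = 0.00714). The end of 5q was above 1 in every sample too, at 1.02 to 1.20, but missed the threshold (edgeR adjusted p = 0.0592), as did 1q (edgeR adjusted p = 0.0539). The end of 11q averaged 1.22 ± 0.546 (SD, n = 6) and ran from 0.642 in the 769 control to 2.23 in the 786 control. A single site of 11q, at position 134918142, carried 226 of the 452 HpaII tags of the 786 control there, and without it that sample stood at 1.12.

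**Figure D3:**
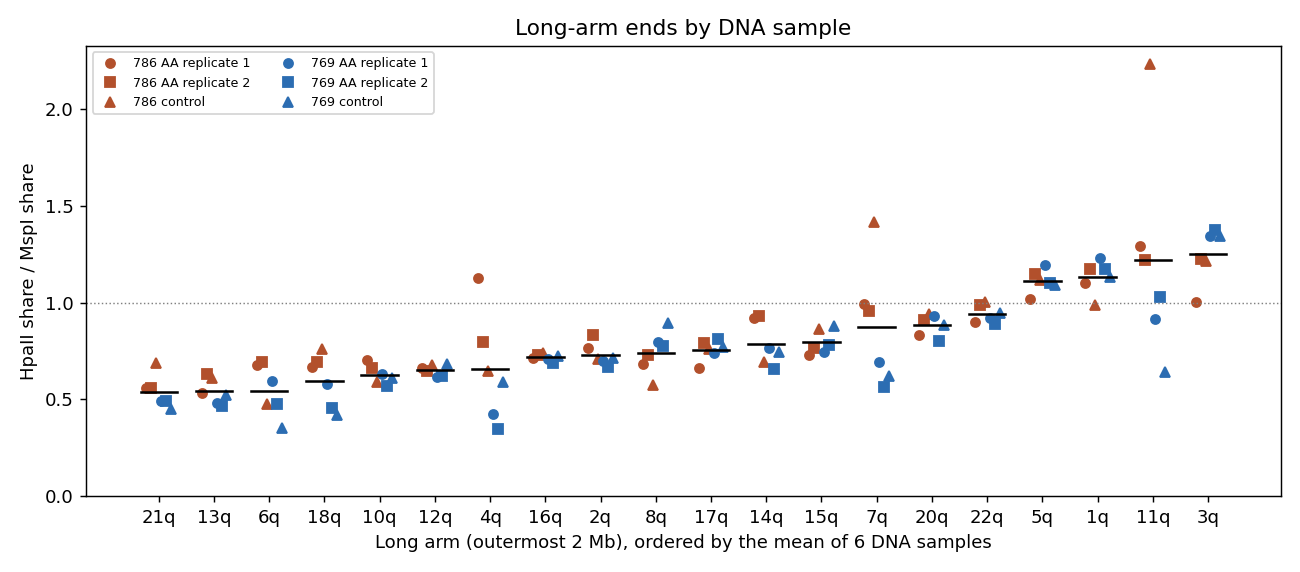
HpaII share over MspI share (linear axis from 0; 1 is the autosome mean) of the outermost 2 Mb of each of 20 long arms; points are the 6 DNA samples, bars their means, and arms run from the lowest mean (21q, 0.540) to the highest (3q, 1.25). On 7q and 11q the 786 control stands above the other samples, at 1.42 and 2.23.

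Between the lines, the ratio of all long-arm ends was higher in 786, at 0.759, 0.801 and 0.811, than in 769, at 0.750, 0.713 and 0.745, and the samples did not overlap. The log2 difference of ends over rest was 0.11, 786 minus 769 (exact permutation test of 3 against 3 samples, p = 0.1, the smallest it allows). Without the heaviest site of each arm the samples overlapped, at −0.44, −0.36 and −0.47 in 786 and −0.46, −0.55 and −0.49 in 769 (difference 0.08, exact permutation p = 0.2). It was 0.02 in a window of 1 Mb (exact permutation p = 0.7). Of the 20 ends, 6 were higher in 786 without overlap and 2 were lower, where 25.5% of all 2 Mb windows did not overlap in one direction or the other. In edgeR's test 2 ends passed, both higher in 786, where 5.09% of all windows passed (4.73% higher and 0.364% lower). The end of 7q, which closes with VIPR2, a receptor of vasoactive intestinal peptide, had 0.994, 0.955 and 1.42 in 786 and 0.696, 0.563 and 0.622 in 769 (log2 0.89 ± 0.15, edgeR adjusted p = 0.0104). In the 786 control 1 site of 7q, at position 157513190, gave 350 of 1007 HpaII tags, and without it that sample stood at 0.925, still above all samples of 769. The end of 18q, which closes with the cell polarity gene PARD6G, had 0.670, 0.695 and 0.760 in 786 and 0.578, 0.455 and 0.421 in 769 (log2 0.63 ± 0.14, edgeR adjusted p = 0.0336). Without 769 AA replicate 2 neither end passed (edgeR adjusted p = 0.0696 for 7q and 0.169 for 18q), and 18q also missed it without 786 AA replicate 1 (0.0860) or 786 AA replicate 2 (0.0772). With the HpaII libraries alone, 18q stood at 0.15 on the log2 scale (edgeR adjusted p = 0.447). The MspI share of an end differed between the lines too, which touches these ratios: as 786 over 769 it was 1.36 on 7q, 0.726 on 18q, 1.60 on 11q and 0.424 on 4q. The part of copy number in the line differences was not tested.

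In bins of 100 kb, 379 of the 400 bins of the long-arm ends had enough tags and were tested among 15099 over the autosomes. HpaII was off the autosome mean in 156 of the 379, where 30.3% of all bins were; 134 were lower and 22 higher, against 18.1% and 12.2% of all bins. The median log2 value was −0.57 in the ends and −0.39 over all bins. Of the 10 called bins with the highest level, 9 held a placed promoter, where 39.8% of the 379 bins did. The bin chr15:101720754-101820753 (hg19, as all positions outside the printed windows), with the promoters of CHSY1, a chondroitin synthase, and SELENOS, a selenoprotein of the endoplasmic reticulum, had 4.28, 1.95 and 2.83 in 786 and 2.06, 2.49 and 2.25 in 769 (log2 1.34 ± 0.21, edgeR adjusted p = 0.00168). The bin chr5:180590670-180690669, with TRIM41 and TRIM52 of the TRIM family of ubiquitin ligases, had 2.23, 2.10 and 1.89 in 786 and 2.45, 2.22 and 2.66 in 769. All 6 samples of both bins were above 1.8. Of the 10 lowest called bins, 0 held one. The lowest, chr17:80886354-80986353, had 23, 3 and 0 HpaII tags in 786 and 56, 4 and 8 in 769, beside 1157 to 3359 MspI tags, so that its ratio was at most 0.0272 in any sample.

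Of the 271 promoter windows placed in the ends, 136 had an HpaII tag in all 6 DNA samples and 3 had none in any: LINC00221, MAFG-AS1 and PPP1R27. The share of the 271 windows with an HpaII tag was 94.5%, 95.9% and 52.8% in 786 and 97.8%, 93.7% and 88.2% in 769, and the shallow 786 control was lowest. In the 5618 windows of the rest it was 96.3%, 96.8% and 41.7% in 786 and 98.1%, 91.7% and 86.9% in 769. Enough tags for a test were left in 132 windows. Of these, 60 were off the autosome mean, where 43.3% of 2094 promoter windows were; 55 were higher and 5 lower, against 41.7% and 1.53%. The 132 had to hold 10 MspI tags in every MspI library, so they are not all promoters of the ends. Under a stricter minimum of 10 tags in every HpaII library, 23 windows were left. Of these, 21 were off the mean (93.8% of 192), all 21 of them higher, 0 differed between lines (0.521%) and 0 changed with AA (3.65%). Because the 786 control was so shallow, this minimum admits mainly windows with a high level. The count off the mean was thus largely set by the filter.

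ADARB1, an RNA-editing adenosine deaminase on 21q, had 232, 74 and 14 HpaII tags in 786 and 153, 122 and 463 in 769, at ratios of 9.95, 2.28 and 15.3 in 786 and 3.51, 4.54 and 9.08 in 769. All 6 samples were above 2, although 21q was the lowest end (log2 2.58 ± 0.55, edgeR adjusted p = 0.00414). TBC1D9B, of a family that acts on Rab GTPases, on 5q, varied least among those named, with 5.61, 5.78 and 6.11 in 786 and 5.92, 3.23 and 5.19 in 769 (log2 2.36 ± 0.51, edgeR adjusted p = 0.00414). Also high were ZNF496 on 1q, a zinc finger gene; CUL4A on 13q, a ubiquitin ligase scaffold; NCAPG2 on 7q, a condensin subunit; GMEB2 and LOC105372709 on 20q; CTU2 on 16q, which takes part in thiolation of transfer RNA; CHKB-CPT1B on 22q; and LOC124903566 on 15q. Their log2 values were 2.21 to 2.53. Within the printed windows the tags were uneven: of the 7 ADARB1 sites, that at 46494360 held 175, 29 and 9 HpaII tags in 786 and 23, 66 and 184 in 769, and that at 46494454 no more than 2 in any sample.

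Of the 5 tested promoters called lower, CERS3, LINC02138 and GCSAML were below 1 in all 6 samples, while LOC112268182 on 16q and FAM240C on 2q were above 1 in 1 sample each. Windows with still fewer HpaII tags were left untested by the tag minimum: LRRK1-AS1 on 15q had 1 HpaII tag beside 272 MspI tags over all libraries, MCF2L on 13q had 4 beside 343, and LINC00221 had 0 beside 370. The last 5 windows were named after their values were seen. CERS3 on 15q, a ceramide synthase of skin and testis, had 16, 0 and 0 HpaII tags in 786 and 50, 0 and 0 in 769 (log2 −4.31 ± 1.23, edgeR adjusted p = 0.00987). Its tags came from AA replicate 1 of each line, and both control samples had none. LINC02138 on 16q, a non-coding gene, had 91, 47 and 1 in 786 and 34, 1 and 0 in 769, ratios of 0.247, 0.379 and 0.180 in 786 and 0.120, 0.00638 and 0 in 769. All 6 of its samples lay below 0.4 (log2 −3.51 ± 0.76, edgeR adjusted p = 0.00414). GCSAML on 1q had 5, 8 and 0 tags in 786 and 18, 32 and 0 in 769 (log2 −3.13 ± 1.02, edgeR adjusted p = 0.0182).

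UTF1, a chromatin-bound factor of embryonic stem cells on 10q, was the promoter of the ends that differed between the lines, where 0.239% of the 2094 windows did (0.0478% higher in 786 and 0.191% lower). It had 0, 1 and 1 HpaII tags in 786 and 277, 160 and 317 in 769, so every sample of 769 had at least 160 and no sample of 786 more than 1. MspI cut the window in all samples of both lines. By site, the outer CCGG at 135043741 had 0, 1 and 0 HpaII tags in 786 and 100, 93 and 205 in 769, and that at 135043687 had 0, 0 and 0 in 786 and 44, 58 and 17 in 769. At the site at 135043493 the counts were 0, 0 and 0 in 786 and 116, 9 and 75 in 769. All 5 sites printed in capitals above thus had their HpaII tags in 769, with 2 tags in all in 786. By sample, the ratio was 0, 0.0183 and 0.498 in 786 and 3.90, 2.24 and 3.75 in 769. The 0.498 is the single tag of the shallow 786 control, so that sample shows a much smaller difference. Pooled over the samples of a line, the ratio was 0.0120 in 786 and 3.16 in 769, which is 262 times higher in 769 (95% exact Poisson interval of the 786 count, 72.6 to 2166). The pooled value of 786 rests mostly on its deeper AA libraries. The window met the minimum of 10 HpaII tags over all libraries through 769, with 754 tags there, and the stricter minimum left it out. The edgeR adjusted p was 0.0467, against 0.0674 with no low count filter and 0.572 with libraries thinned to equal depth. It was 0.358 without 769 AA replicate 1, 0.0648 without 769 AA replicate 2, 0.363 without 786 AA replicate 1 and 0.231 without 786 AA replicate 2.

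In 100 kb bins, 9 of 379 differed between the lines, where 0.775% of all bins did. Higher in 786 were 8 (0.649% of all bins were) and lower was 1 (0.126% of all bins). The widest difference was chr11:134546319-134646318, with 1177, 279 and 17 HpaII tags in 786 and 13, 1 and 0 in 769, at ratios of 1.58, 1.72 and 2.17 in 786 and 0.0490, 0.00689 and 0 in 769 (log2 6.73 ± 0.99, edgeR adjusted p = 0.0125). The lines were far apart there in every sample. The bin chr13:113606751-113706750, which holds a promoter of MCF2L, had 0.600, 0.921 and 0.370 in 786 and 0.114, 0.114 and 0.00140 in 769 (log2 3.69 ± 0.69, edgeR adjusted p = 0.0331). Bins on 10q, 7q, 12q, 18q, 2q and 21q were higher in 786 by 1.58 to 2.28 on the log2 scale. For example, chr18:77213054-77313053 had 0.612, 0.741 and 1.05 in 786 and 0.283, 0.256 and 0.142 in 769 (log2 1.74 ± 0.32, edgeR adjusted p = 0.0321). The bin that went the other way, chr10:135224007-135324006, had 216, 27 and 0 HpaII tags in 786 and 878, 136 and 579 in 769 (log2 −3.09 ± 0.63, edgeR adjusted p = 0.0453). Of the 9 bins, each lost its call without at least 1 of the 6 DNA samples. Without 769 AA replicate 2, 1 bin of the ends was called (0.0752% of all bins), against 22 without 786 AA replicate 1 (2.00% of all bins). In the bins whose 6 HpaII libraries each held 10 tags or more, 18 of 235 were called, where 3.09% of 4307 were. The chr11 and chr13 bins above and the bin lower in 786 were not among these 235.

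**Figure D4:**
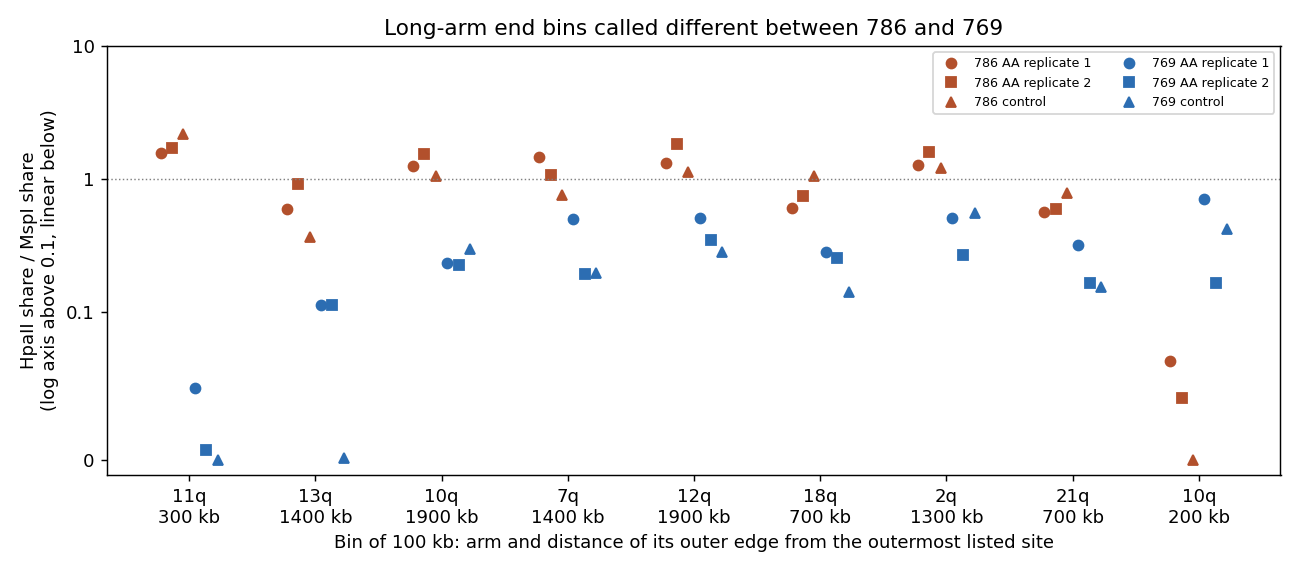
HpaII share over MspI share in the 9 long-arm end bins called different between 786 (left points, brown) and 769 (right points, blue), ordered by log2 difference; the axis is logarithmic above 0.1 and linear below. In the first 8 bins every sample of 786 lies above every sample of 769, and in the last, on 10q, every sample of 786 lies below.

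With AA, the level of the long-arm ends as a whole did not move beyond the spread of the samples. It was 0.759 and 0.801 in AA-treated 786 against 0.811 in the control, and 0.750 and 0.713 in AA-treated 769 against 0.745. The log2 difference of ends over rest, AA minus control within lines, was −0.05 (exact permutation within lines, p = 0.333, where 0.111 is the smallest possible). Of the 20 ends, 2 were above the control of their line in all 4 AA samples, where 21.3% of all windows were, and 4 were below it, where 13% were. No end passed edgeR's test, where 0.0728% of all windows did; 1 did at an unadjusted p under 0.05, where 13.6% of all windows did, and DESeq2 called 1, 6q, where it called 3.13% of all windows. The end of 6q had 0.677 and 0.694 in AA-treated 786 against 0.477 in the control, and 0.593 and 0.479 in AA-treated 769 against 0.351 (log2 0.52 ± 0.14, edgeR adjusted p = 0.171, DESeq2 adjusted p = 0.027).

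By CCGG density, the 769 control stood apart from the AA samples of its line, in the ends as in the rest. At sites with 3 to 7 CCGG the ends of AA-treated 769 had 0.402 and 0.331 against 0.233 in the control, and the rest 0.646 and 0.613 against 0.458. At sites with 16 or more CCGG the ends of AA-treated 769 had 2.51 and 2.30 against 3.72 in the control, and the rest 2.69 and 2.55 against 3.96. In 786 these classes had 0.532 and 0.552 with AA against 0.541, and 2.11 and 2.21 with AA against 2.45. The AA difference of ends over rest had an exact p of 0.222 to 0.556 in the 4 classes.

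In 100 kb bins, AA was tested for both lines together and within each. Together, 3 of 379 bins were higher with AA and none lower, where 0.192% of all bins were called. In chr22:49435739-49535738 AA-treated 786 had 2878 and 901 HpaII tags against 0 in the control, and AA-treated 769 had 634 and 227 against 40. Its ratios were 1.67 and 1.79 against 0 in 786 and 0.567 and 0.460 against 0.0369 in 769, higher with AA in all 4 AA samples (log2 4.38 ± 0.57, edgeR adjusted p = 0.0205). In chr15:101520754-101620753, which holds a promoter of LRRK1-AS1, antisense to the kinase gene LRRK1, the tags were 128 and 111 against 0 in 786 and 78 and 72 against 0 in 769 (edgeR adjusted p = 0.0483). Against the floor of 3 tags in the control library, its mean level with AA was at least 37.5-fold higher in 769. In 786 the mean with AA was 1.44 times that floor, a ratio of 0.235. AA replicate 1 of 786 stood below the floor at 0.142 and AA replicate 2 above it at 0.536. A rise was thus not detectable in AA replicate 1 of 786. In chr16:89385986-89485985 the tags were 132 and 68 against 0 in 786 and 148 and 35 against 1 in 769 (edgeR adjusted p = 0.0407). Its ratios were 0.0881 and 0.162 against 0 in 786 and 0.195 and 0.123 against 0.00110 in 769. In 786 a difference was not detectable at this depth, since 3 tags in the control would be a ratio of 0.137, against a mean of 0.125 with AA. The controls thus had 0 to 40 HpaII tags in these 3 bins, beside 668 to 2423 MspI tags. Their calls did not hold without 769 AA replicate 1 (edgeR adjusted p = 0.249 to 0.296) or 769 AA replicate 2 (0.0775 to 0.165). The median log2 change with AA was 0.22 in the ends and 0.58 over all bins.

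In 769 alone, 26 of 379 bins were called, where 3.25% of all bins were; 25 were higher with AA (3.15% of all bins) and 1 lower (0.106%). DESeq2 called 55 higher and 12 lower, where it called 14% of all bins. In the 10 largest rises the 769 control had 0 to 3 HpaII tags. On 10q, chr10:134424007-134524006 had 301 and 147 tags with AA against 1 in the control, ratios of 0.203 and 0.218 against 0.000884, which is 238-fold (95% exact Poisson interval of the control count, 42.8 to 9410; edgeR adjusted p = 0.00147). The MCF2L bin on 13q had 203 and 92 tags with AA against 3, which is 81.4-fold (27.9 to 395; edgeR adjusted p = 0.00147). With libraries thinned to equal depth neither bin was called (edgeR adjusted p = 0.140 on 10q and 0.0757 on 13q). Thinned, 2 of 341 tested bins of the ends were called in 769, where 0.257% of all bins were. Bins on 1q, 15q, 12q, 4q and 13q with no tag in the control were at least 14.7-fold to 38.5-fold higher with AA, against the floor of 3 tags. The bin that fell, chr15:101420754-101520753, borders the LRRK1-AS1 bin that rose and holds the promoters of LRRK1 and ALDH1A3-AS1. It had 268 and 91 tags with AA against 1228 in the control, ratios of 0.333 and 0.243 against 2.35 (log2 −3.02 ± 0.59, edgeR adjusted p = 0.0217). Under the stricter minimum of 10 tags per HpaII library, 12 of 235 bins were called in 769, where 4.92% of 4307 were, 6 in 786 (1.56%) and 1 in both lines together (0.418%). That minimum left out the 10 largest rises and the bins called above in both lines together. A control library there had fewer than 10 tags. These bins met the main minimum of 10 HpaII tags over all libraries through their other samples. The lower level of the 769 control at sparse sites, over all autosomes, moves with these rises, and its part in them was not tested.

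In 786 alone, 3 of 379 bins were called, where 0.225% of all bins were; 1 was higher (0.0265% of all bins) and 2 lower (0.199%). The 22q bin above was at least 15.3-fold higher with AA. In chr7:157419158-157519157 the ratio was 1.53 and 1.32 with AA against 6.08, and in chr11:134846319-134946318 it was 0.869 and 1.50 with AA against 37.4; 74.6% and 92.2% of the control's tags came from the single sites on 7q and 11q given above. The AA change differed between the lines in 5 of 379 bins, where 0.45% of all bins were called, and it was lower in 786 than in 769 in all 5 (0.397% of all bins were lower and 0.053% higher). DESeq2 called 9 higher and 26 lower, where it called 6.19% of all bins, and under the stricter minimum edgeR called 6 of 235, where 1.44% of 4307 were. That minimum left out 4 of the 5 bins, where the 769 control had fewer than 10 tags. No promoter window of the ends was called with AA by edgeR, where 0% of all windows were; 9 had an unadjusted p under 0.05, where 7.5% of all windows did, and DESeq2 called 2, where it called 1.53% of all windows. FAAP100 on 17q, of the Fanconi anemia core complex, had 199 and 138 tags with AA against 0 in 786 and 323 and 103 against 4 in 769 (edgeR adjusted p = 0.286). Its ratios were 1.15 and 5.1 against 0 in 786 and 6.48 and 2.58 against 0.0994 in 769, above the control value in all 4 AA samples. The 0 is that of the shallow 786 control, where 3 tags would be a ratio above that of 786 AA replicate 1. A rise in that sample was thus not detectable at this depth. The adjacent window of LOC124904085 did not have such low controls. Its ratios were 2.07 and 6.57 against 1.87 in 786 and 4.50 and 3.47 against 1.93 in 769. STMN3 on 20q, of the stathmin family that acts on microtubules, had 74 and 46 against 10 in 786 and 144 and 32 against 292 in 769. Its ratios were 0.483 and 3.06 against 9.35 in 786 and 4.13 and 1.07 against 38.4 in 769, lower in all 4 AA samples (log2 −3.59 ± 1.25, edgeR adjusted p = 0.379).

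**Figure D5:**
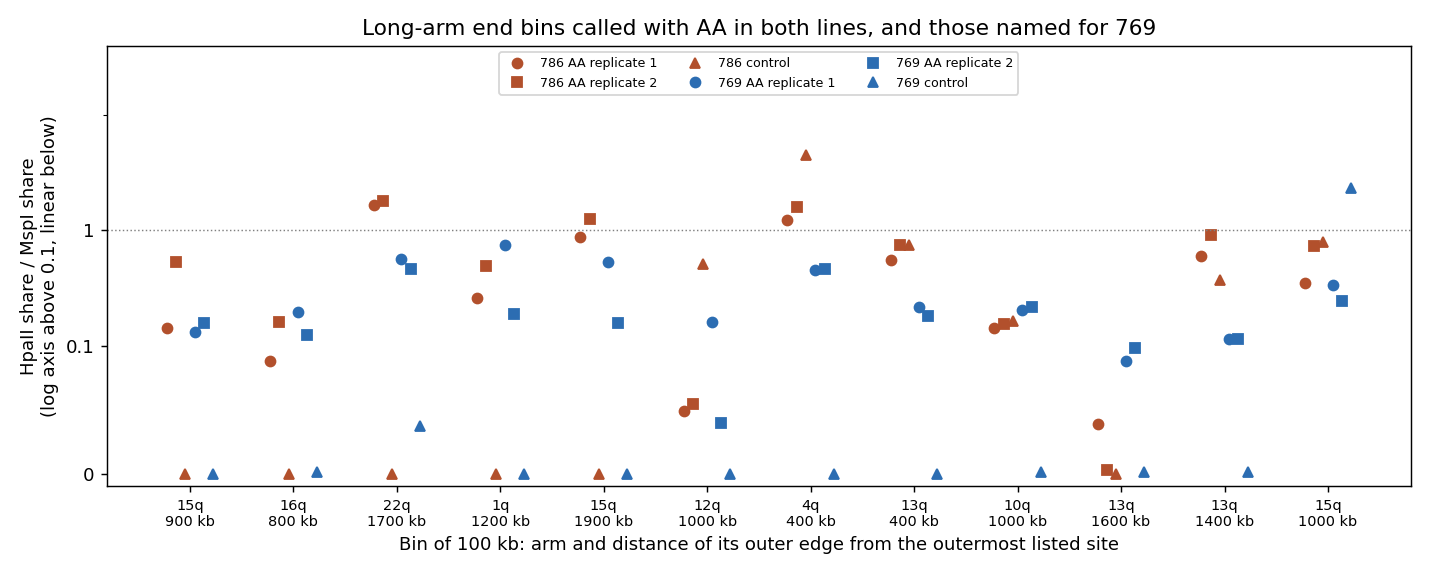
HpaII share over MspI share in the 3 long-arm end bins called with AA in both lines (first 3) and the others named for 769, AA samples left of the control within each line; the axis is logarithmic above 0.1 and linear below. In the first 11 bins the 769 control lies at or near 0, and in the last, on 15q, it lies at 2.35 above the AA samples.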

How the data were processed

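The authors deposited one table per library with a tag count at each CCGG site; these are estimated counts, since 8.23% to 11.5% of a library's listed sites carry a value that is not whole. The submitters' processing notes name hg19 as the build. The sources used here name no aligner. Per the labels' protocols, libraries were amplified by 18 PCR cycles, and 1 HpaII and 1 MspI library were made from each DNA sample.

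The tables were joined by position and unlisted sites counted as 0. Ratios used the deposited expected counts as they are. For edgeR 4.0.16 (R 4.3.3), counts were summed over 100 kb bins, 2 Mb windows or promoter windows, rounded to whole numbers and scaled by TMM within each enzyme (promoter windows by library totals). Tests against the autosome mean used a quasi-likelihood fit with a term for each DNA sample and for enzyme. For the joint AA test and the line test, terms for AA and line by enzyme were added. For AA within a line and its contrast between lines, the AA term was given for each line. Features needed at least 10 MspI tags in each MspI library and 10 HpaII tags over the HpaII libraries. Adjustment was by Benjamini-Hochberg over all autosomal features, with a threshold of 0.05. Pooled ratios were tested by exact permutation over DNA samples (Python 3.11.15, scipy 1.17.1). DESeq2 1.42.0 was an alternative.

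The fits were tested on simulated data with 200 changed features at 8-fold: for AA, 83.0% of changed bins, 100% of windows and 22% of promoters were recovered, and for the line difference 94.5%, 100% and 30%. The changed features were drawn only from those with a mean HpaII count at or above the median. Recovery at lower counts was thus not measured. Named bins were the 10 largest called rises and falls with samples on the same side, or, where fewer passed, those of smallest p up to 3 a direction; promoters followed the same rule. Of 8093 autosomal promoter windows with at least 4 CCGG sites, 6218 matched a single place, 99.6% of these on the chromosome of the table, which the match did not use. The promoter fits were added after seeing the data, and the members and lists were chosen with earlier results of these data known.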

Additional observations from a re-analysis of the deposited data

Results flagged for a closer look

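The distance gradient within the ends, the log2 level of the outer 500 kb minus that of the inner 500 kb, was negative in all 3 samples of 786 (−0.22 to −0.04) and positive in all 3 of 769 (0.14 to 0.35). The difference between the lines was −0.37, 786 minus 769 (exact permutation test of 3 against 3 samples, p = 0.1, the smallest it allows), which misses 0.05. The signs did not hold under every alternative. With at least 10 MspI tags a site all 3 samples of 786 were positive (0.0454, 0.0420 and 0.0235), against 0.556, 0.320 and 1.10 in 769. Without sites whose counts were not whole, 786 AA replicate 1 stood at 0.0137. By the median over the 20 arms, 786 AA replicate 2 stood at 0.0427 and 769 AA replicate 2 at −0.0923.

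In 5 bins of 100 kb the AA contrast differed between the lines by an edgeR interaction test, where 0.45% of all bins were called; each log2 value below is the AA change in 786 minus that in 769. All 5 were negative, so the change with AA was lower in 786 than in 769, and DESeq2 called 9 positive and 26 negative bins of the ends.

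In chr11:134846319-134946318, the outermost 100 kb of 11q, the difference was −7.10 (edgeR adjusted p = 0.0134). The ratio was 0.869 and 1.50 in AA-treated 786 against 37.4 in the control, and 0.415 and 0.154 in AA-treated 769 against 0.0629 in the control, and 92.2% of the tags of the 786 control came from 1 site. In chr10:134424007-134524006 it was −7.85 (edgeR adjusted p = 0.0142), with ratios of 0.141 and 0.155 against 0.163 in 786 and 0.203 and 0.218 against 0.000884 in 769. In chr13:113606751-113706750, the MCF2L bin, it was −5.25 (edgeR adjusted p = 0.0340), with 0.600 and 0.921 against 0.370 in 786 and 0.114 and 0.114 against 0.00140 in 769. In chr2:241175183-241275182 it was −4.81 (edgeR adjusted p = 0.0459), with 1.28 and 1.09 against 0.459 in 786 and 0.406 and 0.588 against 0.00645 in 769. In chr12:132740847-132840846 it was −12.18 (edgeR adjusted p = 0.0421), a fitted value with no bound, since the 769 control had 0 tags there; the tags were 48 and 32 against 8 in 786 and 115 and 19 against 0 in 769. In the last 4 bins the 769 control had 0 to 6 HpaII tags. With libraries thinned to equal depth, these 4 had adjusted p of 0.128 to 0.361 by edgeR and were not called, and the 11q bin was.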

How the results depend on the processing

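The mean ratio of the ends over the 6 samples stayed below the rest under every alternative run. Its log2 value was −0.15 (exact p = 0.0625) when sites were counted, with the 786 control above the rest at 0.06, and −0.44 to −0.40 without 1 DNA sample each, where 0.0625 is the smallest exact p possible. The AA effect on it turned positive without the heaviest site of each arm (0.0244), with at least 10 MspI tags a site (0.0426) and with a window of 5 Mb (0.00023); without single samples it was −0.07 to −0.02. The line difference turned negative with at least 10 MspI tags a site (−0.0264) and was 0.09 to 0.14 without single samples. The distance gradient was −0.0235 with sites counted, −0.0113 with density matched and 0.35 (exact p = 0.03125) with at least 10 MspI tags a site, and 0.02 to 0.13 without single samples. The causes were not tested.

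Counts of called bins were less stable; the share of all bins called follows each in brackets. DESeq2 called 19 (3.68%) with AA in both lines, 67 (14%) in 769, 14 (1.19%) in 786, 35 (6.19%) for the AA contrast between lines, 50 (9.09%) between lines and 240 (49.7%) off the mean. With no low count filter the first 5 of these counts were 23 (1.67%), 40 (4.52%), 18 (1.48%), 30 (2.63%) and 43 (2.90%). With HpaII libraries alone they were 0 (0%) in both lines, 10 (1.26%) in 786, 23 (3.95%) for the contrast and 32 (2.76%) between lines. With 10 or more tags in each HpaII library they were 1 (0.418%), 12 (4.92%), 6 (1.56%) and, between lines, 18 (3.09%). Thinned libraries gave 1 (0.147%), 2 (0.257%), 8 (1.37%) and, between lines, 18 (1.51%). Bins counted from position 1 gave 5 (0.206%) with AA in both lines. Without single samples the counts were 0 to 17 (0% to 1.62%) with AA in both lines, 24 to 52 (2.82% to 9.64%) in 769 and 3 to 11 (0.199% to 1.08%) in 786. They were 5 to 38 (0.385% to 4.52%) for the contrast, 1 to 22 (0.0752% to 2.29%) between lines and 108 to 148 (13.8% to 26.9%) off the mean. An AA count without a control was not run, since it rests on the other line alone.

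Among the arms, DESeq2 called 1 (3.13% of all windows) with AA and 8 (11.3%) between lines, against 5 (24.8%) with HpaII alone, 4 (5.81%) thinned and 0 to 5 (0.509% to 7.35%) without single samples. Off the mean were 13 to 17 (32.5% to 49.3%) without single samples, and 0 (0% to 0.146%) were called with AA. Among promoters, DESeq2 called 2 (1.53%) with AA and 3 (1.53%) between lines, and TMM within enzymes 1 (0.669%) with AA. Between lines 0 were called with 10 or more tags in each HpaII library (0.521%), with no low count filter (0.0171%) or thinned (0%), and 0 to 1 (0% to 0.275%) without single samples. Off the mean were 21 (93.8%) with at least 10 tags in each HpaII library, a minimum that admits mainly windows with a high level. The count was 36 (39.1%) thinned and 34 to 72 without single samples.

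The labels do not say whether same-numbered AA samples of the 2 lines were prepared together. Deviations of same-numbered samples correlated at −0.0131 over all bins. A correlation between 2 different lines cannot settle this. With a replicate block the called bins were 14 (0.987%) with AA in both lines, 44 (6.71%) in 769, 15 (2.19%) in 786, 33 (4.16%) for the contrast, 32 (2.88%) between lines and 86 (10.1%) off the mean, the promoters off the mean 31 (14.9%), and the arms between lines 1 (3.93%); 18q then missed the threshold (edgeR adjusted p = 0.0509). TMM over all 12 libraries moved the median of all bins off the mean to −0.62, against −0.39. Depth limits the 786 control most, at 10816 HpaII tags in the ends.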
